A study of Homo sapiens with 6 samples.

Results

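The mRNAs of MAP2K6 and of 9 other kinases of the p38 and JNK stress pathways were followed in HEK293 cells given GSK-A1. The 10 genes were taken by symbol from a table of 63140 genes, and all 10 passed the filter on low counts that left 16754 genes for testing. MAP2K6 was selected on the fall of its count with GSK-A1 in these same libraries, so its change is described without a test. The other 9 were listed as its pathway partners with earlier results of these data known, so they are not a blind choice.

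HEK293 is an established human line from embryonic kidney. GSK-A1 inhibits PI4KA, a lipid kinase that supplies phosphatidylinositol 4-phosphate to the cell surface. One group of confluent cells was given 100 nM GSK-A1 and kept for 24 h, and the control group was given dimethyl sulfoxide (DMSO), with 3 libraries per group. The labels call the libraries biological replicates without describing separate cultures. The p-values therefore rest only on the spread between these libraries, with each gene's estimate drawn towards a trend over all genes tested. In bulk RNA, fewer cells of a kind and less RNA per cell cannot be told apart.

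Library totals ran from 33040178 to 47777233 counts, and all 6 libraries carry the same batch label. GSK-A1 replicate 2 stood apart: its counts differed from those of GSK-A1 replicates 1 and 3 by a chi-square per gene of 10.98 and 15.52, against 2.88 between those and 1.84 to 3.14 among the DMSO libraries. Of 8 markers of HEK293 cells, 7 were above 1 CPM (counts scaled to library size) and NEFM was below it in every library. VIM stood at 1084 ± 33 CPM in the controls and 1216 ± 58 after GSK-A1 (SD, n = 3), and the 8 markers summed to 2129 to 2204 and 2276 to 2473 CPM. By edgeR, VIM (log2 ratio 0.17, adjusted p = 0.00423) and KRT8 (0.11, adjusted p = 0.0373) were called higher and PAX2 (-0.43, adjusted p = 0.0177) lower. The KRT8 and PAX2 calls were both lost without DMSO replicate 1 or 3 or GSK-A1 replicate 1 (edgeR, adjusted p up to 0.147 and 0.0616). KRT8 was also lost without DMSO replicate 2 (edgeR, adjusted p = 0.102). The same held under upper-quartile library factors and with library totals alone (edgeR, adjusted p = 0.164 and 0.0592). PAX2 was also lost with DESeq2. The part of these markers in the results below was not tested. Of 10 markers of blood, vessel, liver, heart and connective tissue, 9 were under 1 CPM in every library, with HBB among them at 0. The exception was COL1A1 of connective tissue, at 6.46 to 7.24 CPM in DMSO libraries and 4.86 to 6.74 CPM in GSK-A1 libraries. The 10 markers summed to 7.49 to 8.17 CPM in DMSO libraries and 5.42 to 8.04 CPM in GSK-A1 libraries, with COL1A1 included.

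The p38 kinases are mitogen-activated protein kinases (MAPKs) that respond to osmotic stress, ultraviolet light, inflammatory cytokines and blocked translation. A MAP kinase kinase kinase (MAP3K) phosphorylates a MAP kinase kinase (MAP2K), which phosphorylates the MAPK on a threonine and a tyrosine. MAP2K3 and MAP2K6 are dedicated to p38, MAP2K7 to the JNKs, and MAP2K4 acts on both. Active p38 phosphorylates transcription factors and further kinases, among them MAPKAPK2 and MAPKAPK3, which control the decay of mRNAs with AU-rich elements.

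MAP2K6 lies on the plus strand of chromosome 17, and RefSeq (GRCh38.p14) gives it 2 start sites 87.6 kb apart. Counts are per gene and do not tell which start was used. The 250 bases before each start are shown because MAP2K6 moved most among the 10 kinases. Those before the first start of MAP2K3, which has the same role, are shown for comparison. Capitals mark a match to any of 7 motifs searched on both strands.
MAP2K6 first start, chr17:69414447-69414696, plus strand: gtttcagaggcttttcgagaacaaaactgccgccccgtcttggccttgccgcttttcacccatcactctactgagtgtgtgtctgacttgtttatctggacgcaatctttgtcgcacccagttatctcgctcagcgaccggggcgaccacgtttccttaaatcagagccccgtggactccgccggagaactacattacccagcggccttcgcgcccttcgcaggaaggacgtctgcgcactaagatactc
MAP2K6 second start, chr17:69502012-69502261, plus strand: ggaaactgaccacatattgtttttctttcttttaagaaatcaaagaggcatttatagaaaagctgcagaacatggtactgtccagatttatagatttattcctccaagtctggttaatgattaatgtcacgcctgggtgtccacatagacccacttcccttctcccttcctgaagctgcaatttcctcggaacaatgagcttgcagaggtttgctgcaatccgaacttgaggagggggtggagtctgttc
MAP2K3 first start, chr17:21284461-21284710, plus strand: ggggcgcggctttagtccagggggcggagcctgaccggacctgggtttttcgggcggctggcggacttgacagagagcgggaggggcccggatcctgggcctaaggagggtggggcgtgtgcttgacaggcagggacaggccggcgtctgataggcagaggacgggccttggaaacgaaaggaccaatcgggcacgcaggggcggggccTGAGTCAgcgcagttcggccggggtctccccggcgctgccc

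The motifs were AP-1 (TGANTCA), CRE (TGACGTCA), EGR (GCGNGGGCG), ETS (CCGGAA), TEAD (GGAATG), FOXO (GTAAACA) and the CArG box of serum response factor, and none contains another. Neither MAP2K6 stretch held any of them, which says only that these letters are not in these windows. The first MAP2K3 stretch held an AP-1 match, TGAGTCA, 41 bases before the start. Among all 35116 stretches of this length, 6.57% held the AP-1 letters, 1.65% CRE, 8.41% EGR, 14.5% ETS, 11.9% TEAD, 2.98% FOXO and 1.16% a CArG box. GC content was 55.6% and 43.2% in the MAP2K6 stretches and 70.4% in that of MAP2K3, beside a median of 58% over all stretches. In all, 9 of the 10 kinases matched the promoter table, with 12 stretches. EGR letters were found for MAP2K4, MAPK12, MAPK13 and the first start of MAPKAPK3, and ETS letters for MAPK12 and the second start of MAPKAPK3. Apart from N, the EGR letters are all G or C. The stretches that held them had a GC content of 74% to 84.4%, above the median of 58%. The MAPK11 stretch, at 79.2%, held none of the 7 motifs, and nothing is read from the number of EGR matches.

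MAP2K6 was lower in each GSK-A1 library than in any DMSO library. Its level (ENSG00000108984) was 11.9, 14.04 and 13.1 CPM in DMSO replicates 1 to 3 and 6.71, 6.53 and 5.52 CPM in GSK-A1 replicates 1 to 3. The groups did not overlap, and no library lay between them. The means were 13 ± 1.1 and 6.25 ± 0.64 CPM (SD, n = 3), a log2 ratio of -1.05 ± 0.088 (SE), or -51.7% on the linear scale. Counts were 199 to 639 per library. The log2 ratio ran from -1.12 to -0.97 when 1 library was left out. Its log2 ratio was the 49th lowest of all genes tested. Among 1574 genes with a symbol, called lower with no overlap and a mean of at least 1 CPM, its fall had rank 5. The fall lay between those of TMEM37 at -1.13 and ACTA2 at -1.01. The log2 ratios of its 9 partners were all under 0.15 in size.

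**Figure D1:**
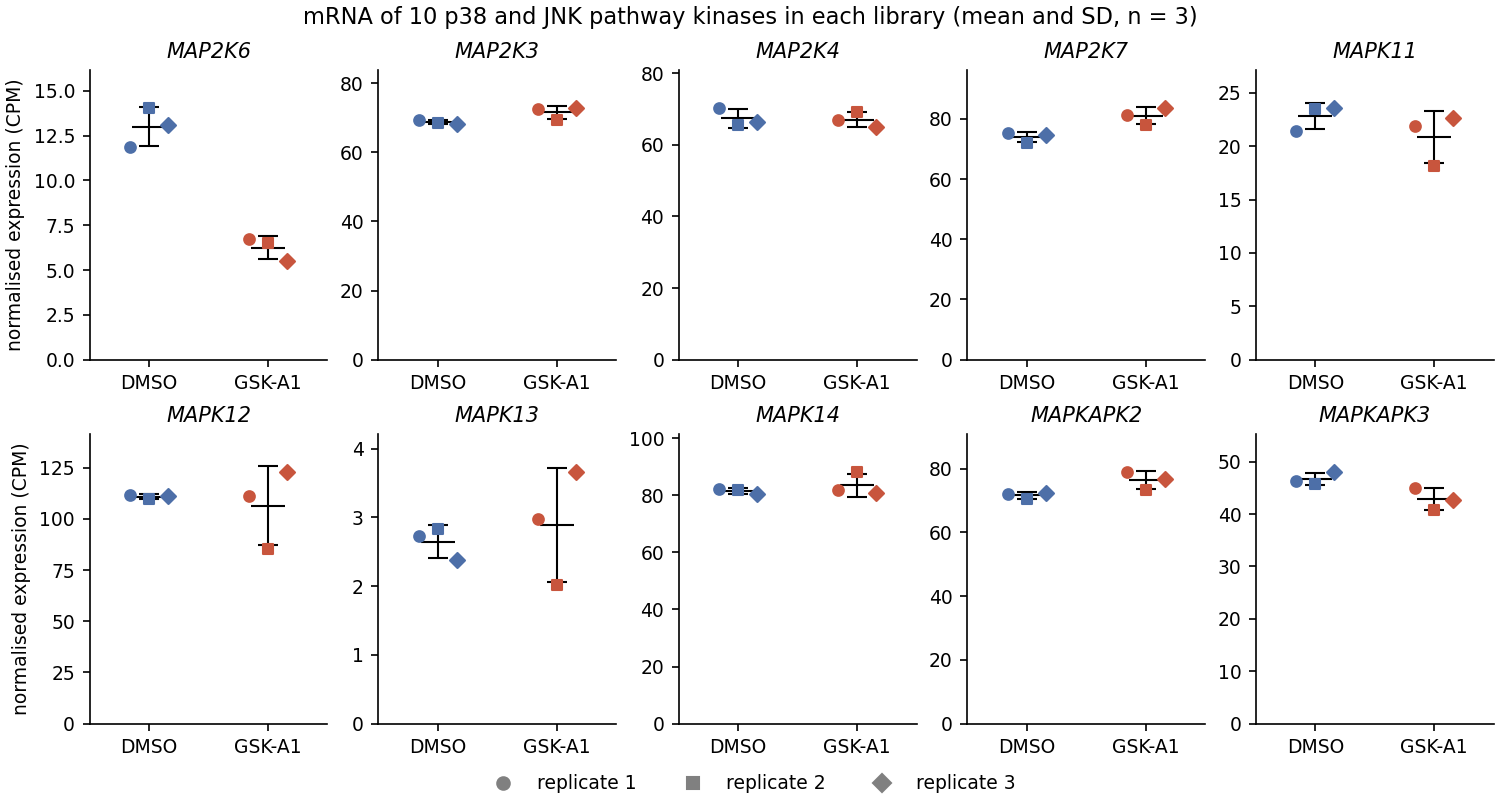
Normalised expression (CPM, linear axis from 0) of the 10 kinases in each library, with DMSO in blue, GSK-A1 in red, marker shapes for the replicate number, and bars for the mean and SD of 3 libraries. MAP2K6 lies at 11.9 CPM or more in the controls and at 6.71 CPM or less after GSK-A1, while the treated libraries of MAPK12 spread from 85.2 to 123 CPM.

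Of the 9 partners, 1 passed an edgeR adjusted p under 0.05, MAP2K7, which was higher. MAP2K6 lies past the same threshold through its selection, which is no test of it, and counting it makes 2 of 10. Among all genes tested 22.9% passed, 12% higher and 10.9% lower, and nothing is read from the count. In 5 of the 10, MAP2K6 included, the groups did not overlap, against 40.5% of all genes tested. The median log2 ratio of the 10 was 0.014, against -0.011 over all genes tested.

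The other MAP2K dedicated to p38, MAP2K3, stood at 69.4, 68.6 and 68.3 CPM in the controls and at 72.5, 69.5 and 72.9 CPM after GSK-A1. The treated libraries were all slightly higher, the lowest of them close to the highest control. The log2 ratio was 0.059 ± 0.04 (SE; edgeR, adjusted p = 0.315), with a 95% interval of -0.026 to 0.14. It passed once each library's trend with GC content was taken out, an alternative added after seeing the data (0.12, edgeR adjusted p = 0.0118). Of its 50-base stretches, 3.36% also occur in LOC100996792.

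MAP2K4, which serves p38 and JNK, stood at 70.3, 65.4 and 66.3 CPM in the controls and at 66.9, 69.3 and 65.0 CPM after GSK-A1. The groups overlapped, and the log2 ratio was -0.0073 ± 0.044 (SE; edgeR, adjusted p = 0.927; 95% interval -0.1 to 0.085). Of its 50-base stretches, 6.83% also occur in the pseudogene MAP2K4P1.

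MAP2K7, the JNK-dedicated MAP2K, was higher after GSK-A1 by a small margin. It stood at 75.3, 71.9 and 74.6 CPM in the controls and at 81.4, 78.0 and 83.6 CPM after GSK-A1, and the groups did not overlap. The log2 ratio was 0.13 ± 0.042 (SE; edgeR, adjusted p = 0.0300), or 9.62% on the linear scale. The call was lost in 5 of 6 fits that left out 1 library. By edgeR the adjusted p was then 0.0701, 0.152 and 0.0892 without DMSO replicates 1, 2 and 3, and 0.0788 and 0.0901 without GSK-A1 replicates 1 and 3. It was also lost under upper-quartile library factors (0.092, edgeR adjusted p = 0.122). An antisense gene covers 8.51% of its exonic length.

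**Figure D2:**
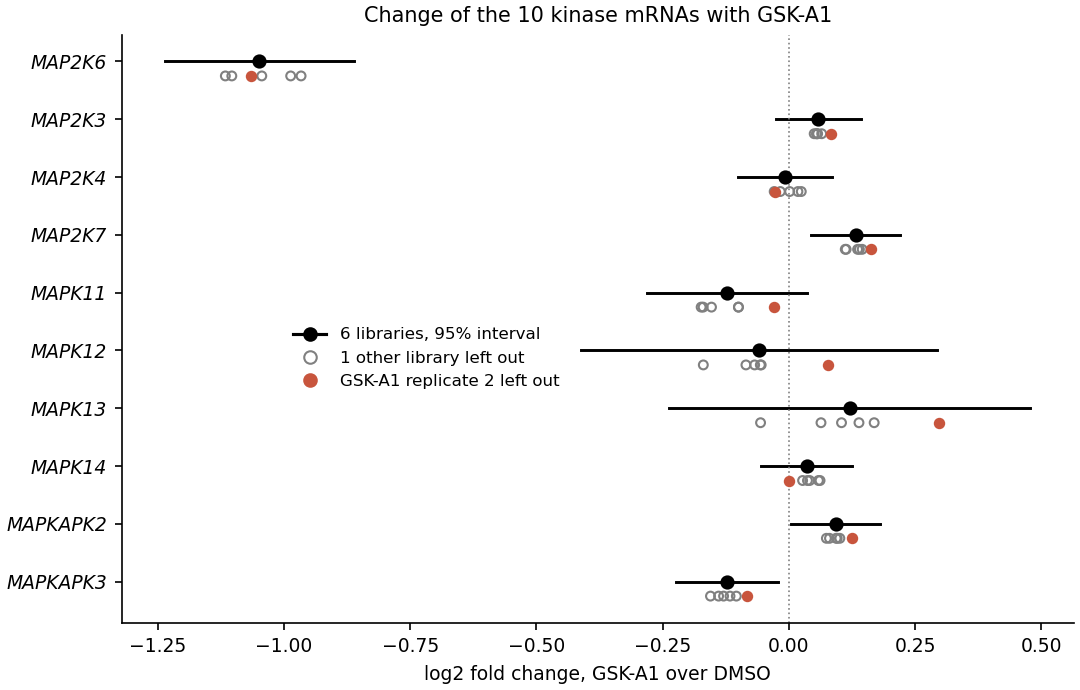
Log2 ratio of GSK-A1 to DMSO for the 10 kinases, with the value and 95% interval from all 6 libraries in black and, just below, the value with each library left out, in red for GSK-A1 replicate 2. MAP2K6 stays between -1.12 and -0.97, and leaving out GSK-A1 replicate 2 moves MAPK12 from -0.059 to 0.078 and MAPK13 from 0.12 to 0.30.

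The 4 p38 kinases are MAPK14 (p38 alpha), MAPK11 (beta), MAPK12 (gamma) and MAPK13 (delta), and none of them passed the test. MAPK14, the isoform behind most known p38 functions, stood at 82.3, 81.8 and 80.5 CPM in the controls and at 81.8, 88.2 and 80.8 CPM after GSK-A1. GSK-A1 replicate 2 was the high library, and the others lay together. The log2 ratio was 0.035 ± 0.042 (SE; edgeR, adjusted p = 0.593; 95% interval -0.055 to 0.12).

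MAPK12 was level in the controls, at 112, 109.8 and 111 CPM, and spread out after GSK-A1, at 111, 85.2 and 123 CPM. GSK-A1 replicate 2 lay below all DMSO libraries and GSK-A1 replicate 3 above them. The log2 ratio was -0.059 ± 0.14 (SE; edgeR, adjusted p = 0.804; 95% interval -0.41 to 0.29). Without GSK-A1 replicate 2 it was 0.078 (edgeR, adjusted p = 0.0776). The MAPK12 count is uncertain, because HDAC10 on the same strand covers 29.3% of its exonic length and holds 40.7% of its 50-base stretches. HDAC10 stood at 12.4, 11.3 and 12.7 CPM in the controls and at 11.9, 7.201 and 14.2 CPM after GSK-A1, lowest and highest in the same libraries as MAPK12.

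MAPK11 lies 1.9 kb from MAPK12 on chromosome 22. It stood at 21.4, 23.5 and 23.6 CPM in the controls and at 21.9, 18.1 and 22.6 CPM after GSK-A1, again lowest in GSK-A1 replicate 2. The log2 ratio was -0.12 ± 0.074 (SE; edgeR, adjusted p = 0.257; 95% interval -0.28 to 0.036), and -0.029 without that library. MAPK13, 16.6 kb from MAPK14 on chromosome 6, stood at 2.73, 2.83 and 2.38 CPM in the controls and at 2.98, 2.02 and 3.66 CPM after GSK-A1, on 69 to 139 counts per library. The groups overlapped, with a log2 ratio of 0.12 ± 0.17 (SE; edgeR, adjusted p = 0.647; 95% interval -0.24 to 0.48). MAPK11, MAPK12 and MAPK13 thus had their lowest level in GSK-A1 replicate 2, where MAPK14 had its highest. What sets that library apart was not tested.

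The downstream kinases differed in sign. MAPKAPK2 (MK2), which phosphorylates small heat shock proteins and mRNA-binding proteins, stood at 71.9, 70.4 and 72.3 CPM in the controls and at 78.9, 73.3 and 76.6 CPM after GSK-A1. The groups did not overlap, but the log2 ratio of 0.093 ± 0.041 (SE) missed the threshold (edgeR, adjusted p = 0.118). It passed without GSK-A1 replicate 2 (0.13, edgeR adjusted p = 0.00357) and with GC trends taken out (0.14, edgeR adjusted p = 0.00277). MAPKAPK3 (MK3), its close relative, stood at 46.4, 45.8 and 48.0 CPM in the controls and at 45.0, 40.7 and 42.7 CPM after GSK-A1. Here the treated libraries were all lower, with a log2 ratio of -0.12 ± 0.048 (SE; edgeR, adjusted p = 0.0733). It passed under upper-quartile factors (-0.16, edgeR adjusted p = 0.0219). CISH on the opposite strand covers 5.56% of its exonic length.

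Levels of different genes were compared per kb, because a longer mRNA gives more counts. Per kb of the longest coding transcript, control means were 57.8 ± 0.53 CPM per kb for MAPK12, 29.9 ± 0.25 for MAP2K3, 24.2 ± 0.33 for MAPKAPK2 and 21.6 ± 0.52 for MAP2K7 (SD, n = 3). MAPK14 followed at 18.9 ± 0.21 CPM per kb, MAP2K4 at 17.5 ± 0.67, MAPKAPK3 at 15.6 ± 0.39, MAPK11 at 9.39 ± 0.51, MAP2K6 at 0.970 ± 0.081 and MAPK13 at 0.427 ± 0.038. No neighbours in this order overlapped over the 3 DMSO libraries. The level of MAP2K6 depends on the length used, since its longest coding transcript has 13400 bases and its coding sequence 1002. Per kb of coding sequence MAP2K6 stood at 12.98 ± 1.1 CPM per kb, still ninth of 10, between MAPK11 at 20.9 ± 1.1 and MAPK13 at 2.42 ± 0.22. On that scale MAPK12 led at 101 ± 0.92 CPM per kb and MAPK14 was second at 75.5 ± 0.85, while MAP2K7 at 56.7 ± 1.4 and MAP2K4 at 54.8 ± 2.1 overlapped.

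MAP2K6 was a minor part of the mRNA for the MAP2Ks that act on p38 (MAP2K3, MAP2K4 and MAP2K6). Per kb of coding sequence its share was 8.74%, 10.5% and 9.85% in DMSO replicates 1 to 3 and 5.12%, 5.03% and 4.29% in GSK-A1 replicates 1 to 3. Per kb of transcript the mean share was 2.01% ± 0.2 in the controls and 0.953% ± 0.096 after GSK-A1 (SD, n = 3). MAP2K3 held 49.4% ± 0.19 and 53.1% ± 1.5 per kb of coding sequence. These shares use the value that MAP2K6 was selected on and are a description.

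Among the p38 kinases, MAPK12 held 66.8% ± 0.49 of the summed control level per kb of transcript, MAPK14 21.8% ± 0.29, MAPK11 10.9% ± 0.59 and MAPK13 0.494% ± 0.045 (SD, n = 3). After GSK-A1 the MAPK14 share was 21.9%, 28.1% and 20.2% in replicates 1 to 3, with replicate 2 above and replicate 3 below the DMSO libraries. The mean difference of 1.601 percentage points became -0.752 without replicate 2. Per kb of coding sequence MAPK12 held 50.5% ± 0.46 and MAPK14 37.8% ± 0.4 of the control level. The overlap of MAPK12 with HDAC10 bears on all these shares.

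**Figure D3:**
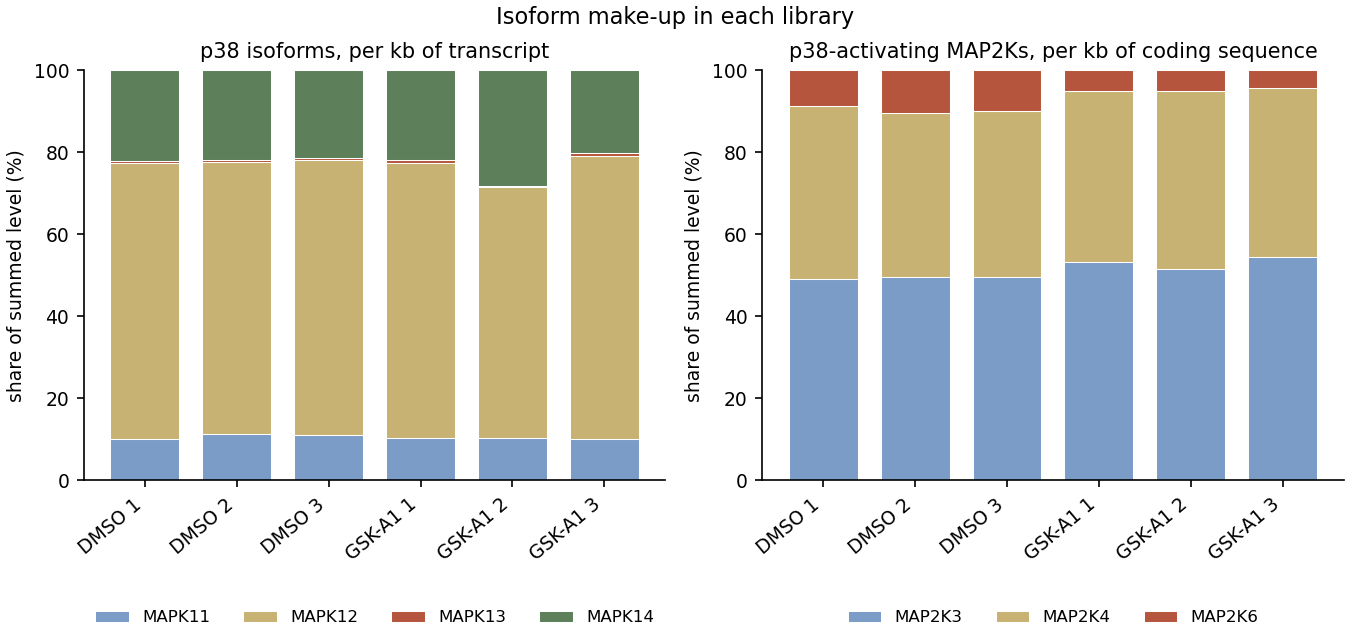
Share of the summed level (%, stacked bars to 100) held by each p38 kinase per kb of transcript (left) and by each p38-acting MAP2K per kb of coding sequence (right) in each library. The MAPK14 share is 28.1% in GSK-A1 replicate 2, its highest, and the MAP2K6 share is 8.74% or more in DMSO libraries and 5.12% or less in GSK-A1 libraries.

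The rest of the pathway was read from 7 lists by role, with 80 genes, of which 70 were tested. These lists too were chosen with earlier results of these data known, so their counts are a description. Of these, 32 passed, 27 higher and 5 lower. Among all genes tested 22.9% passed, 12% higher and 10.9% lower. These shares stand beside the count of each list below, and no list was tested as a set. The median log2 ratio of the 70 genes was 0.096. Over all genes, 52.3% of the calls were higher, and 33.3% under upper-quartile factors, which moved the median of all genes to -0.051. Without DMSO replicate 1 the 32 became 19.

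Of the kinases above the MAP2Ks, 5 of 16 were called higher and 1 lower, with a median of 0.088. MAP3K2 rose from 52.9 ± 0.91 to 64.1 ± 4 CPM (SD, n = 3; log2 ratio 0.28 ± 0.048, SE; edgeR, adjusted p = 6.96e-04). TAOK3 and TAOK1, TAO kinases that act on MAP2K3 and MAP2K6, rose by 0.24 ± 0.052 and 0.16 ± 0.038 (log2, SE; edgeR, adjusted p = 0.00406 and 0.00746). TAOK1 was the most abundant of the list, at 142 ± 0.7 and 158 ± 6.5 CPM. Without DMSO replicate 1, 3 were called higher and 0 lower.

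Of the adaptors and activators of MAP3Ks, 3 of 11 tested were called higher and 0 lower. GADD45A and GADD45B, which bind and switch on MAP3K4, rose by 0.43 ± 0.058 and 0.52 ± 0.079 (log2, SE; edgeR, adjusted p = 1.10e-04 and 2.38e-04). GADD45B was at 8.61, 7.56 and 7.51 CPM in the controls and at 11.2, 12.2 and 10.8 CPM after GSK-A1, with no overlap. TRAF6, a ubiquitin ligase that links cytokine receptors to MAP3K7, rose from 15.7 ± 1.6 to 20.01 ± 0.66 CPM (log2 ratio 0.35 ± 0.07; edgeR, adjusted p = 0.00185). RAC1, the most abundant, stood at 264 ± 1.8 and 279.5 ± 7.1 CPM (0.084 ± 0.034; edgeR, adjusted p = 0.0886).

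The JNKs and their scaffolds had 3 of 8 called higher and 1 lower. SPAG9 (JIP4), a scaffold for JNK and p38, rose from 240.0 ± 2.2 to 279 ± 5.6 CPM (log2 ratio 0.22 ± 0.034, SE; edgeR, adjusted p = 2.96e-04). MAPK8IP1 (JIP1) rose by 0.21 ± 0.058 (edgeR, adjusted p = 0.0143), and its relative MAPK8IP2 (JIP2) fell from 57.7 ± 2.3 to 47.3 ± 1.7 CPM (-0.29 ± 0.046; edgeR, adjusted p = 4.17e-04). Antisense RNA covers 11.7% of the exonic length of MAPK8IP1. Of its 50-base stretches, 12.8% also occur in a gene without a symbol and 11.5% in MAPK8IP1P1. The MAPK8IP1 call was lost without DMSO replicate 1 or 3 or GSK-A1 replicate 3 (edgeR, adjusted p = 0.0585, 0.0645 and 0.0513). The remaining higher call was MAPK8 (JNK1), named after its value was seen, at 0.18 ± 0.051 (edgeR, adjusted p = 0.0208). Without DMSO replicate 1 or 3, 1 of the list was called higher.

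**Figure D4:**
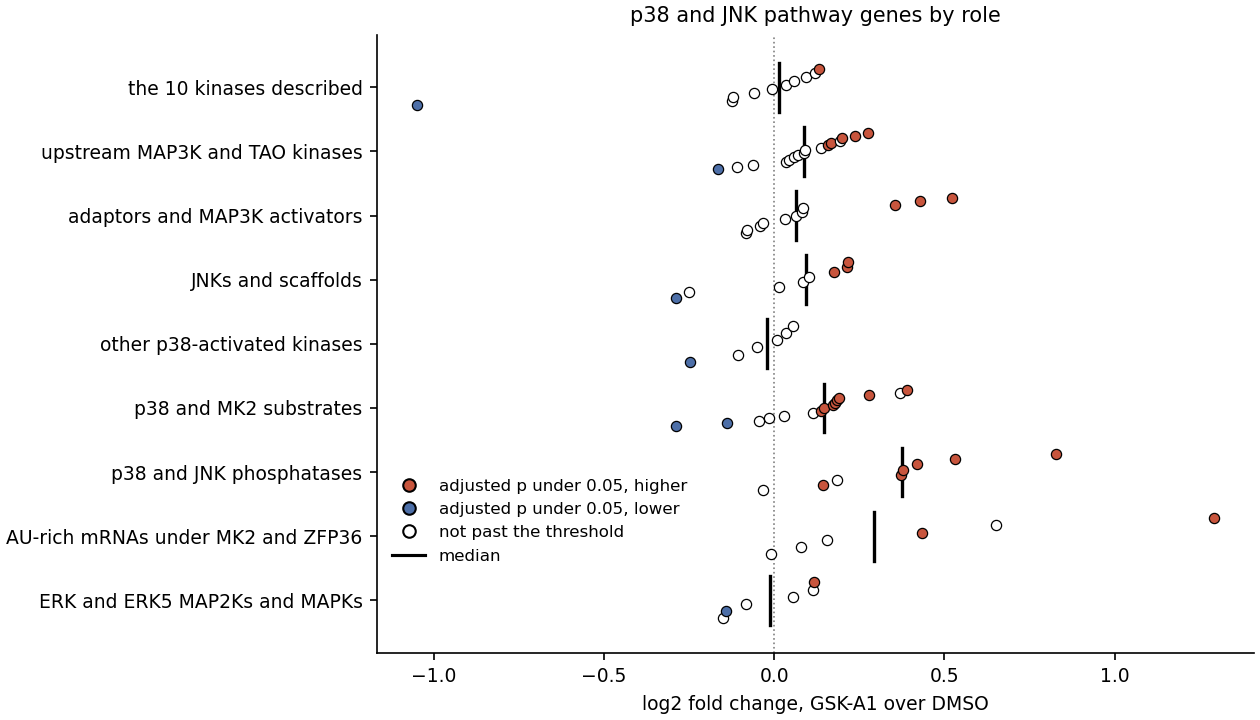
Log2 ratio of GSK-A1 to DMSO for each tested gene, by role in the p38 and JNK pathways, in red where higher and blue where lower at an edgeR adjusted p under 0.05, with a bar for the median. MAP2K6, selected on its fall, lies at -1.05, and the phosphatases have a median of 0.38 with DUSP1 highest at 0.83.

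Of the other kinases that p38 activates, 0 of 6 were called higher and 1 lower, beside 12% and 10.9% of all genes tested. RPS6KA4 (MSK2), which phosphorylates histone H3 and CREB1, fell from 21.6 ± 0.88 to 18.2 ± 1.1 CPM (log2 ratio -0.25 ± 0.06, SE; edgeR, adjusted p = 0.00765), a call lost without DMSO replicate 1 (edgeR, adjusted p = 0.0580). MKNK2, the most abundant, stood at 156 ± 4.2 and 162 ± 4.7 CPM (0.054 ± 0.038; edgeR, adjusted p = 0.328). It passed without GSK-A1 replicate 2 (edgeR, adjusted p = 0.0392).

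Substrates of p38 and MK2 had 8 of 15 tested called higher and 2 lower, with a median of 0.15. ELK4, an ETS factor that works with serum response factor, rose from 59.0 ± 2.5 to 77.5 ± 1.8 CPM (log2 ratio 0.39 ± 0.043, SE; edgeR, adjusted p = 1.45e-05). MEF2C, a transcription factor that p38 phosphorylates, rose by 0.28 ± 0.057 (edgeR, adjusted p = 0.00247). HNRNPA0, which binds AU-rich elements and was the most abundant, fell from 365 ± 7.6 to 331 ± 12 CPM (-0.14 ± 0.036; edgeR, adjusted p = 0.0118), a call lost without DMSO replicate 1 or GSK-A1 replicate 1 or 3 (edgeR, adjusted p = 0.0727, 0.0854 and 0.0503). The 8 higher calls became 3 under upper-quartile factors and 4, 4 and 3 without DMSO replicates 1, 2 and 3, and 5 without GSK-A1 replicate 1.

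The phosphatases that switch off p38 and JNK had 6 of 8 tested called higher and 0 lower, with a median of 0.38. Over all genes tested, 12% were called higher and 10.9% lower. DUSP1, a nuclear phosphatase of p38, JNK and ERK, stood at 55.8, 57.2 and 54.0 CPM in the controls and at 98.7, 99.5 and 98.1 CPM after GSK-A1. The groups lay far apart against their spread, with a log2 ratio of 0.83 ± 0.04 (SE; edgeR, adjusted p = 4.66e-10). DUSP16, which prefers JNK and p38, rose from 89.8 ± 1.6 to 120.2 ± 2.8 CPM (0.42 ± 0.038; edgeR, adjusted p = 1.65e-06). DUSP8 rose from 24.6 ± 1.6 to 35.7 ± 1.7 CPM (0.53 ± 0.057; edgeR, adjusted p = 9.72e-06).

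Of 10 mRNAs with AU-rich elements listed under MK2 and ZFP36, 6 had enough counts to test, and 2 were called higher. Whether MK2 acts on each of them through ZFP36 was not tested. IER3 rose from 4.58 ± 0.1 to 6.21 ± 0.52 CPM (log2 ratio 0.43 ± 0.093, SE; edgeR, adjusted p = 0.00338), and IER3-AS1 covers 26.5% of its exonic length. CXCL8, the chemokine interleukin 8, was barely detected, with 6 to 27 counts per library. It stood at 0.146, 0.308 and 0.181 CPM in the controls and at 0.579, 0.439 and 0.527 CPM after GSK-A1 (1.29 ± 0.33; edgeR, adjusted p = 0.00989). The call was lost without DMSO replicate 1 or GSK-A1 replicate 1 (edgeR, adjusted p = 0.0708 and 0.0529). VEGFA, the most abundant, stood at 77.8 ± 2 and 82.1 ± 8.7 CPM (0.079 ± 0.062; edgeR, adjusted p = 0.400) and passed without GSK-A1 replicate 2 (0.16; edgeR, adjusted p = 1.97e-04).

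The MAP2Ks and MAPKs of the ERK and ERK5 arms were read alongside. Of these, 1 of 6 was called higher and 1 lower, beside 12% and 10.9% of all genes tested. MAP2K1 stood at 82.9 ± 0.92 and 90.0 ± 1.8 CPM (log2 ratio 0.12 ± 0.038, SE; edgeR, adjusted p = 0.0353) and MAPK3 at 63.5 ± 1.4 and 57.5 ± 3.1 CPM (-0.14 ± 0.046; edgeR, adjusted p = 0.0349). Both calls were lost when any 1 of DMSO replicates 1 to 3 or GSK-A1 replicate 1 was left out, at an edgeR adjusted p of 0.0726 to 0.139 for MAP2K1 and 0.0673 to 0.137 for MAPK3. The MAP2K1 call was also lost under upper-quartile factors (0.077; edgeR, adjusted p = 0.143) and with library totals alone (edgeR, adjusted p = 0.0561). The MAPK3 call was also lost with DESeq2 (adjusted p = 0.0552) and with GC trends taken out (-0.075; edgeR, adjusted p = 0.115).

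The protein-coding neighbours of MAP2K6 on chromosome 17 were read on both sides. ABCA5, 87.5 kb away, stood at 20.4 and 19.7 CPM (log2 ratio -0.053 ± 0.055, SE; edgeR, adjusted p = 0.520), and was called lower with GC trends taken out (-0.14; edgeR, adjusted p = 0.0483). ABCA10, 169.9 kb away, had a log2 ratio of 0.13 ± 0.20 (edgeR, adjusted p = 0.689). KCNJ2, 614.8 kb away on the other side, stood at 1.35 and 0.892 CPM with overlapping groups (-0.54 ± 0.21; edgeR, adjusted p = 0.0744). KCNJ2 passed without DMSO replicate 1 (-0.71; edgeR, adjusted p = 0.0449) and with GC trends taken out (-0.58; edgeR, adjusted p = 0.0472), and was at -0.38 without DMSO replicate 3 (edgeR, adjusted p = 0.268). SOX9, 2567.2 kb away, was called lower (-0.24 ± 0.078; edgeR, adjusted p = 0.0358), a call lost without any 1 library other than GSK-A1 replicate 2 (edgeR, adjusted p = 0.0571 to 0.186) and with DESeq2 (adjusted p = 0.0885). ABCA6 and KCNJ16 had too few counts to test.

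Log2 CPM over the 6 libraries was compared with MAP2K6 in 12815 tested genes with a symbol and a mean of at least 1 CPM. The genes that followed MAP2K6 most closely were THEM4 (Pearson r = 0.999), CYREN (0.997), COL5A1 (0.997), PCYOX1L (0.996) and MTURN (0.996). The most opposed were INTS7 (-0.998), SMAD7 (-0.998), RARA-AS1 (-0.994), DNAJC6 (-0.993) and PHLDA2 (-0.993). All points share the difference between the same 2 groups of 3 libraries, so these values are a description. The closest genes had smaller log2 ratios than MAP2K6, -0.61 for COL5A1, -0.40 for MTURN, -0.40 for PCYOX1L, -0.32 for THEM4 and -0.14 for CYREN.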

How the data were processed

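RNA-seq counts were analysed for 3 DMSO and 3 GSK-A1 libraries of HEK293 cells. The authors deposited raw counts per gene, with 1 column per library and no normalization. Per the labels' protocols, libraries came from a stranded kit and were sequenced on an Illumina HiSeq; per the submitters' processing notes, cutadapt 5.1, STAR 2.7.11b, featureCounts (Subread 2.1.1), DESeq2 1.38.0 and GRCh38.p13 were used, with no role given. The annotation and strand setting are not given in the sources used here.

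Genes were filtered with filterByExpr (smallest count 10, smallest total 15), scaled by TMM and tested with edgeR 4.0.16 (R 4.3.3; robust quasi-likelihood F test), with Benjamini-Hochberg adjustment over 16754 genes and a threshold of 0.05. Errors come from the spread between replicates, with each gene's estimate drawn towards a trend over all genes tested. The common biological coefficient of variation was 4.06%. Likeness used log2(CPM + 0.5). Lengths, overlaps, GC content and gene order came from GENCODE 29, promoters from RefSeq (GRCh38.p14). Code was tested on simulated data. Besides the 10 kinases, the rule named up to 3 called genes with the smallest p and the most abundant gene of each list, neighbours of MAP2K6 and the 5 most and least similar genes; some genes under this rule are not reported here. Members and lists were chosen with earlier results of these data known. Alternatives were other factors, filters, tools (DESeq2 1.42.0, limma 3.58.1 with voom), thresholds, a replicate block, left-out libraries and, added later, removal of the GC trend (loess, span 0.3).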

Additional observations from a re-analysis of the deposited data

How the results depend on the processing

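The MAP2K6 change lay between -1.12 and -0.97 over all alternatives run. The 2 kinases called, MAP2K6 included, became 4 with the GC trend removed, 1 at an adjusted p under 0.01, and 1 to 3 with 1 library left out. Over all genes the 3835 called became 1871 at an adjusted p under 0.01 and 2163 to 4890 with 1 library left out. The 32 pathway genes became 21 and 19 to 43 in the same way. The difference in the MAP2K6 share, -1.06 percentage points per kb of transcript, was -4.89 per kb of coding sequence, -4.41 without length, and -1.16 to -0.967 with 1 library left out. That in the MAPK14 share ran from -0.752 to 3.22, turning sign without GSK-A1 replicate 2. Signs also turned in kinases that were not called. MAP2K4 was at 0.00102 without the filter and ran from -0.029 to 0.0247 with 1 library left out, at 0.00162 and 0.018 for GSK-A1 replicates 1 and 3. MAPK12 was at 0.00998 with the GC trend removed and ran from -0.169 to 0.078, MAPK13 from -0.056 to 0.298. MAPK14 was at -0.00589 under upper-quartile factors and ran from -0.000134 to 0.0618. The cause was not tested. Replicate numbers were not used to pair the samples in the main fit. Deviations of same-numbered libraries correlated only weakly, at 0.0118, 0.0349 and 0.0423. Every library still correlated best with its own number, so these values do not settle whether the numbers mark pairs. The replicate block gave 2 kinases, 32 pathway genes and 4127 genes in all. Low counts limit MAPK13 and CXCL8.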

Other observations

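Some pathway genes had counts that invite a look at the reads. HSPB1, a heat shock protein and classic MK2 target, held 0 to 10 counts per library and was not tested. CDC42, a GTPase that activates MAP3Ks, held 84 to 124 counts per library, and 89.1% of its 50-base stretches also occur in AL031281.2 on the same strand. The cause of these low counts was not tested.

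TUBGCP6, 0.5 kb from MAPK12, stood at 177, 175 and 176 CPM in the controls and at 174, 134 and 180.1 CPM after GSK-A1, lowest in GSK-A1 replicate 2 like MAPK12. PLXNB2, 4.2 kb from MAPK11, fell from 274 ± 4 to 239.9 ± 11 CPM (SD, n = 3; log2 ratio -0.19 ± 0.038, SE; edgeR, adjusted p = 0.00206). Both were named after their values were seen.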
